A study of Sus scrofa with 48 samples.

Results

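Genes that bring fatty acids from the blood into fat cells and hand them on inside the cell were followed in the subcutaneous adipose tissue (SCAT) of growing pigs. The 10 genes were LPL, CD36, FABP3, FABP4, FABP5, SLC27A1, SLC27A4, ACSL1, VLDLR and GPIHBP1. Probes were taken when the array named them for one of these genes and when the scanner software marked them well above background in 9 or more pigs of a 12-pig group. The array carried 40 probes for 8 of the genes among its 60305 distinct probes, and 38 of these 40 were kept, against 44356 kept probes in all. LPL had 7 kept probes, CD36 and FABP3 5 each, FABP4 8, FABP5 and ACSL1 4 each, VLDLR 3 and SLC27A1 2. SLC27A4 and GPIHBP1 had no named probe and were not analysed here. For 3 of the 40 probes (FABP3 O8743, LPL O15020 and VLDLR O13092) the files did not settle whether they are listed in the strand that reads the gene.

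The 48 pigs were Large White barrows aged 132 days per the labels, in a design of 2 diets and 2 lines with 12 pigs and 1 array per pig in each group. The HF diet was rich in fat and fiber, and the LF diet was poor in both and based on starch. One line had been bred for a low and the other for a high residual feed intake (RFI), so that the more efficient pigs were those of low RFI. All animals of a line descend from the same selection, so that a difference between lines is one between these 2 populations.

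Circulating triglycerides are split at the vessel wall by lipoprotein lipase (LPL), which GPIHBP1 holds on the endothelium, and VLDLR is a receptor for triglyceride-rich lipoproteins. The released fatty acids cross the adipocyte membrane with the help of CD36 and of the transport protein encoded by SLC27A1. Inside the cell they are carried by fatty acid binding proteins (FABP4, the abundant adipocyte form, FABP5 and FABP3) and are activated to acyl-CoA by ACSL1 before they are esterified or oxidized.

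Levels are the log2 processed signal of a probe minus the median of its array over the kept probes, so that 0 is the median probe. Brightness depends on the probe as well as on the transcript, so levels were compared between groups of pigs and never between probes. The share of probes well above background ran from 62.2% to 81.9% over the 48 arrays, and each of the 6 slides, scanned on 2 dates, held 2 arrays of every group. The adipocyte markers had a mean level over the 7 genes measured of 8 listed that lay between 7.09 and 7.82 in every pig, and the adipokine ADIPOQ lay between 8.39 and 9.47. Of the other lists, 9 of 10 endothelial, 9 of 10 macrophage, 8 of 10 skeletal muscle, 4 of 5 blood, 3 of 8 keratinocyte and all 8 fibroblast markers were measured. No marker of any list was called by line. By diet, 1 of the 7 adipocyte markers and 2 of the 8 fibroblast markers were called, against 12.7% of all genes. The adipocyte hormone gene LEP fell by 0.67 on the log2 scale with HF (adjusted p = 0.0051). The 7 adipocyte markers ran from -0.67 to 0.22 with a median of 0.0012, so LEP does not stand for the list. The fibroblast genes COL1A2 and PDGFRA were 0.36 and 0.31 higher (adjusted p = 0.064 and 0.067), in a list with a median of 0.18. The mean level of the fibroblast markers ran from 5.24 to 6.17 in LF low RFI pigs, from 5.32 to 6.89 in LF high RFI, from 5.55 to 6.29 in HF low RFI and from 5.67 to 6.5 in HF high RFI. Its part in the results below was not tested, and in whole tissue fewer cells of a type and less RNA per cell cannot be told apart.

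Diet left these genes within narrow limits. A difference was called where the fold change exceeded 1.1, the raw p was below 0.01 and the p adjusted by Benjamini-Hochberg was below 0.08. Only 1 of the 38 probes was called by diet, a dim SLC27A1 probe that was lower with HF, while 13.1% of all kept probes were called and 7.44% were called lower (4.25% lower and 8.69% higher with 75th percentile scaling). Of the 38, 9 were higher and 29 lower with HF, while 44.2% of all kept probes were higher. Several probes read each gene, so these are not counts of separate genes. The median difference was -0.07 on the log2 scale against -0.02 over all kept probes. For 37 of the 38 the 95% interval of the difference lay within a fold change of 1.5 in either direction. A raw p under 0.05 was reached by 3 of the 38, against 25.5% of all kept probes.

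**Figure D1:**
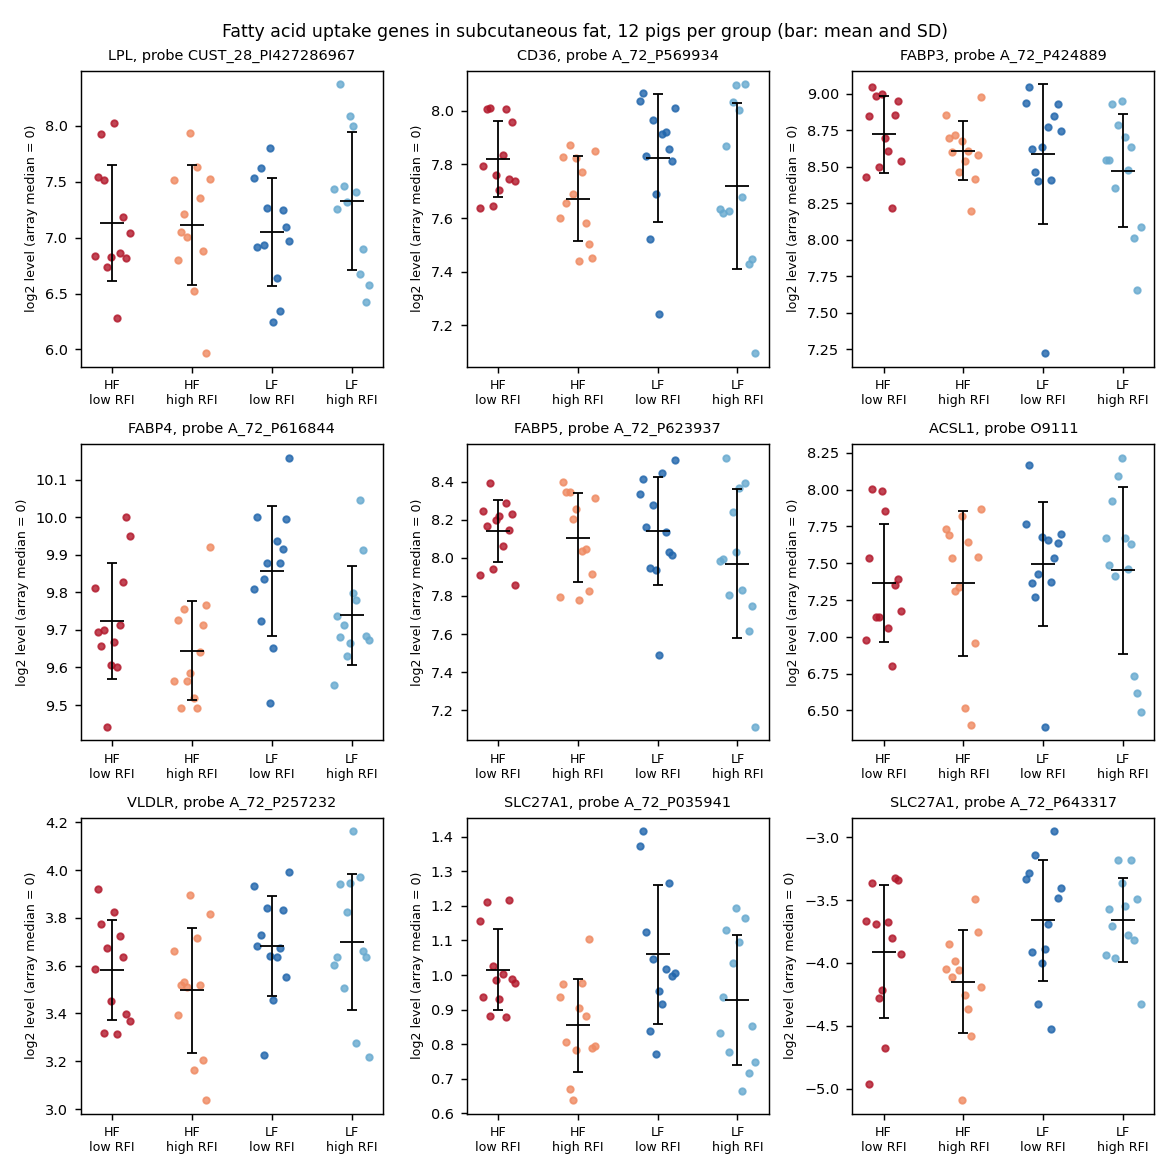
Level of 1 or 2 probes per gene in each of the 48 pigs (log2 scale, array median at 0), with the mean and SD of each group of 12 pigs as bars. The groups overlap in every panel, and in the last panel, SLC27A1 probe A_72_P643317, the HF means of -3.91 and -4.15 lie below the LF means, both at -3.66.

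LPL, the lipase that frees fatty acids at the vessel wall, had differences between diets from -0.12 to -0.06 over its 7 probes, none of them called. Its brightest probe, CUST_28_PI427286967, is annotated on the array to a baboon sequence. In HF low RFI pigs this probe ran from 6.28 to 8.02 with a median of 6.95, and in HF high RFI pigs from 5.97 to 7.94 with a median of 7.13. In LF low RFI it ran from 6.25 to 7.80 with a median of 7.03, and in LF high RFI from 6.42 to 8.37 with a median of 7.36. All 4 groups overlapped over most of their ranges. The diet difference was -0.06 (SE 0.15, interval -0.37 to 0.24, adjusted p = 0.83). The porcine probe A_72_P232767 varied less, with an SD of 0.28 in the 24 HF pigs and 0.25 in the 24 LF pigs, and differed by -0.12 (SE 0.08, adjusted p = 0.35). Within lines, the 7 probes differed by diet from -0.21 to -0.16 in high RFI pigs and from -0.04 to 0.08 in low RFI pigs, with no call in either. The interaction for these probes was 0.12 to 0.29, each with an adjusted p of 1, so the lines were not shown to differ in the diet response of LPL.

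VLDLR, the lipoprotein receptor, was lower with HF on its 3 kept probes by -0.15 to -0.03, although 1 of the 3 was higher when arrays were scaled to the 75th percentile. Probe A_72_P257232 ran from 3.32 to 3.92 in HF low RFI pigs (median 3.61), from 3.04 to 3.89 in HF high RFI (median 3.52), from 3.22 to 3.99 in LF low RFI (median 3.68) and from 3.22 to 4.16 in LF high RFI (median 3.65). The highest levels were in LF pigs and the lowest in HF pigs, with most pigs of both diets in a shared range, and the difference of -0.15 (SE 0.07, raw p = 0.036, adjusted p = 0.16) was not called. A 4th probe of VLDLR, O13092, cleared the background on 8 of 48 arrays and was not kept.

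CD36, the fatty acid translocase of the adipocyte membrane, differed least by diet, from -0.04 to -0.02 over its 5 probes, of which 3 took the opposite sign under 75th percentile scaling and under quantile normalization. Probe A_72_P569934 had a median level of 7.78 (7.64 to 8.01) in HF low RFI pigs and 7.67 (7.44 to 7.87) in HF high RFI. The medians were 7.88 (7.24 to 8.07) in LF low RFI and 7.66 (7.10 to 8.10) in LF high RFI. The spread was smaller among the 24 HF pigs (SD 0.16) than among the 24 LF pigs (SD 0.28), a contrast of spreads that was not tested. The interval of the diet difference, -0.15 to 0.10, corresponds to fold changes of 0.90 to 1.07.

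SLC27A1, the fatty acid transport protein, held the single call and also showed how far it rested on 1 probe. Probe A_72_P643317 had a mean processed signal of 24.4 and stood clearly above background on 35 of the 48 arrays, with 9 of 12 in HF low RFI, 6 of 12 in HF high RFI, 9 of 12 in LF low RFI and 11 of 12 in LF high RFI. Its levels ran from -4.97 to -3.33 in HF low RFI (median -3.74) and from -5.09 to -3.49 in HF high RFI (median -4.09). In LF low RFI they ran from -4.53 to -2.95 (median -3.59) and in LF high RFI from -4.32 to -3.18 (median -3.64). The lowest pigs were on HF and the highest on LF, with a wide overlap between. The mean fell from -3.66 ± 0.41 (SD, n = 24) with LF to -4.03 ± 0.48 (SD, n = 24) with HF, a difference of -0.37 (SE 0.13, interval -0.63 to -0.11, adjusted p = 0.053). The call was lost when the spot background was not subtracted (-0.14), under normexp background correction (-0.13), in the table of log2 values deposited by the authors (-0.14), with 75th percentile scaling (-0.33), with array position as a block (-0.40) and within each scan date (-0.47 and -0.27).

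The brighter probe of the same gene, A_72_P035941, cleared the background on all 48 arrays and did not share the call. Its levels ran from 0.88 to 1.22 in HF low RFI (median 0.99), from 0.64 to 1.1 in HF high RFI (median 0.84), from 0.77 to 1.42 in LF low RFI (median 1.01) and from 0.66 to 1.19 in LF high RFI (median 0.90). The diet difference was -0.06 (SE 0.05, interval -0.16 to 0.04, adjusted p = 0.48). That interval leaves out the -0.37 of the dim probe but holds the -0.14 and -0.13 that the dim probe had with the other ways of handling background. Over the 48 pigs, with group means removed, the 2 probes correlated with a Pearson r of 0.43. The called probe and the 3rd SLC27A1 probe, A_72_P444031, which cleared the background on 10 of 48 arrays and was not kept, are shown 5′ to 3′ as the stretches read by the dim probes of the gene. Capitals mark CG dinucleotides.
A_72_P643317: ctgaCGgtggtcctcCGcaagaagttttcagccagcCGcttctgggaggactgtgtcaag
A_72_P444031: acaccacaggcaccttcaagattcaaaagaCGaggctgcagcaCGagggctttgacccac

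The 3 binding proteins did not share a sign. FABP3, best known from heart and muscle, was higher with HF on all 5 probes, by 0.14 to 0.22, FABP5 was higher on all 4, by 0.06 to 0.10, and FABP4 was lower on all 8, by -0.17 to -0.06. None of the 17 was called, and the signs were the same under 75th percentile scaling, quantile normalization, normexp and in the authors' table. FABP3 probe A_72_P424889 ran from 8.22 to 9.05 in HF low RFI (median 8.77), from 8.20 to 8.98 in HF high RFI (median 8.60), from 7.22 to 9.05 in LF low RFI (median 8.69) and from 7.66 to 8.95 in LF high RFI (median 8.55). The highest levels were alike on both diets and the lowest were in LF pigs, with a difference of 0.14 (SE 0.10, adjusted p = 0.40).

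FABP4 probe A_72_P616844 ran from 9.44 to 10 in HF low RFI (median 9.70), from 9.49 to 9.92 in HF high RFI (median 9.61), from 9.51 to 10.16 in LF low RFI (median 9.88) and from 9.55 to 10.04 in LF high RFI (median 9.70). The difference of -0.11 (SE 0.04, interval -0.20 to -0.03) had an adjusted p of 0.078, but its raw p of 0.011 and its fold of 0.92 both missed the thresholds. The array medians taken off each level had means of 8.43 and 8.44 in HF low and high RFI pigs. They were 8.29 and 8.37 in LF low and high RFI pigs. Before that step the median signals of A_72_P616844 were 289808 and 285947 in these HF groups and 294546 and 285084 in these LF groups. The part of the array medians in this difference was not tested. FABP5 probe A_72_P623937 had medians of 8.18 (7.86 to 8.39) and 8.13 (7.78 to 8.40) in HF low and high RFI pigs and of 8.15 (7.49 to 8.51) and 7.99 (7.11 to 8.53) in LF low and high RFI pigs. The FABP5 difference was 0.07 (SE 0.08, adjusted p = 0.64), and the lowest pig of each LF group stood below every HF pig.

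ACSL1, which activates the imported fatty acids, was lower with HF by -0.15 to -0.09 over 4 probes. On probe O9111 the level ran from 6.80 to 8.00 in HF low RFI (median 7.26), from 6.40 to 7.87 in HF high RFI (median 7.54), from 6.39 to 8.16 in LF low RFI (median 7.59) and from 6.49 to 8.22 in LF high RFI (median 7.56). The pigs varied widely inside each group, and the difference of -0.11 had an SE of 0.13 (interval -0.37 to 0.16, adjusted p = 0.65).

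Within low RFI pigs none of the 38 probes was called by diet, against 3.04% of all kept probes, and within high RFI pigs none, against 1.66%. At an unadjusted p under 0.05 there were 1 and 2 probes, against 15.1% and 13.9% of all. The interaction between diet and line was called for none of the 38 by limma, against 0% of all kept probes, and none had an unadjusted p under 0.05, against 1.04% of all.

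**Figure D2:**
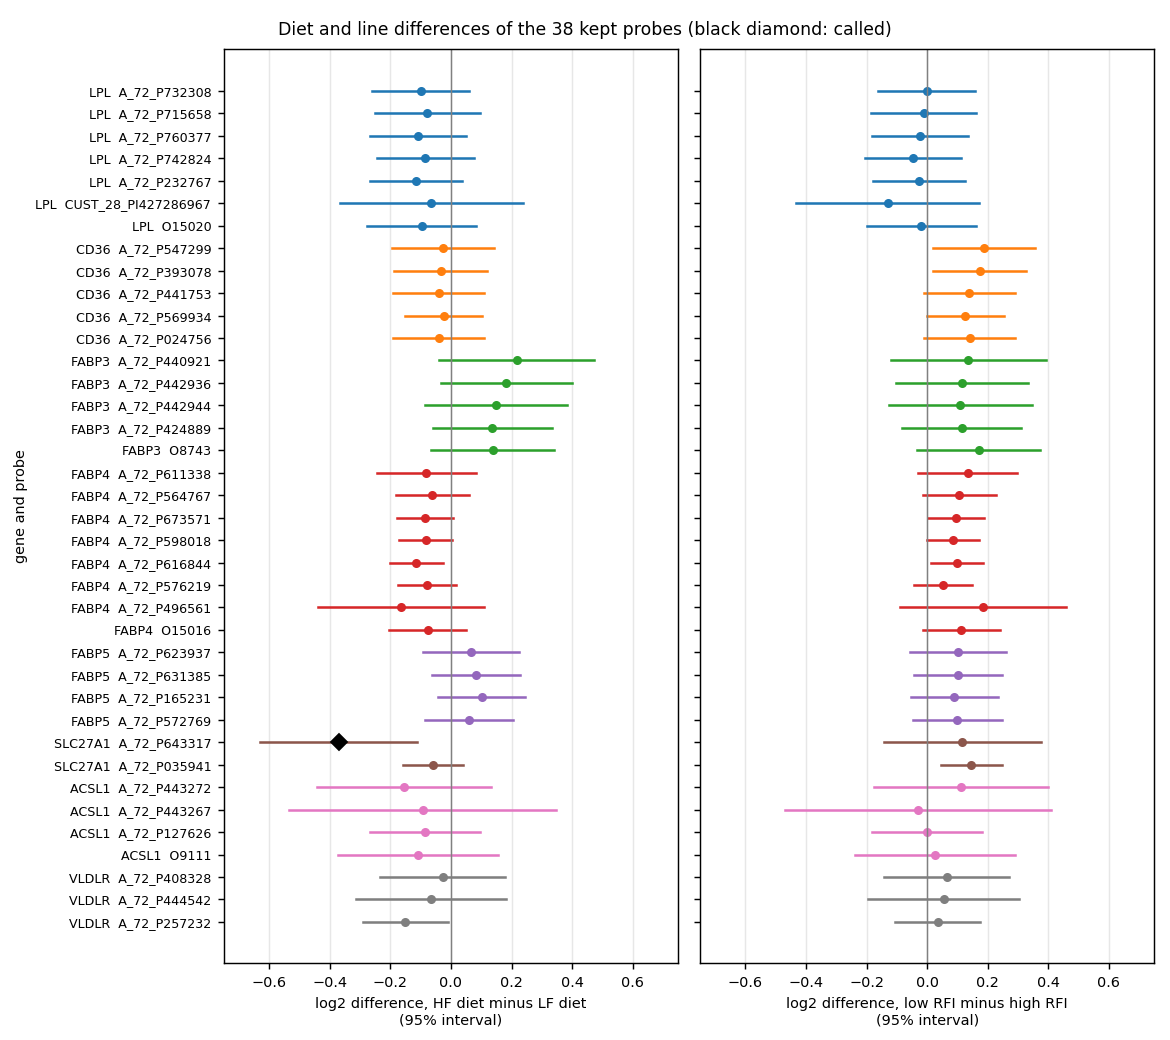
Differences of the 38 kept probes on the log2 scale with 95% intervals, HF minus LF on the left and low RFI minus high RFI on the right, coloured by gene. The black diamond is the only called difference, SLC27A1 probe A_72_P643317 at -0.37, and the CD36 probes all lie right of 0 in the line panel, at 0.13 to 0.19.

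Between lines, none of the 38 probes was called by limma, against 1.37% of all kept probes, while 5 had an unadjusted p under 0.05, against 10.4% of all. The 95% intervals of all 38 lay within a fold change of 1.5. The median difference, low RFI minus high RFI, was 0.10 against 0.01 over all kept probes. Of the 38, 29 were higher in low RFI, against 57.0% of all kept probes. Several probes read each gene, so these are not counts of separate genes. CD36 was higher on all 5 probes by 0.13 to 0.19, FABP3 on all 5 by 0.11 to 0.17, FABP4 on all 8 by 0.05 to 0.18 and FABP5 on all 4 by 0.09 to 0.10, with the same signs under each scaling. LPL was lower on all 7 probes, from -0.13 to 0.00, the signs of ACSL1 differed among its 4 probes, and VLDLR and SLC27A1 were higher on every kept probe, by 0.03 to 0.06 and 0.12 to 0.15.

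The smallest p between lines was that of SLC27A1 probe A_72_P035941, at 1.04 ± 0.16 (SD, n = 24) in low RFI and 0.89 ± 0.16 (SD, n = 24) in high RFI pigs, a difference of 0.15 (SE 0.05, raw p = 0.0049, adjusted p = 0.17). CD36 probe A_72_P569934 stood at 7.82 ± 0.19 (SD, n = 24) in low RFI and 7.70 ± 0.24 (SD, n = 24) in high RFI pigs, a difference of 0.13 (SE 0.06, adjusted p = 0.50). The CD36 probes nearer the start of the transcript, A_72_P547299 and A_72_P393078, differed by 0.19 (adjusted p = 0.39) and 0.17 (adjusted p = 0.37). With array weights, these 2 probes and A_72_P035941 were called, in a fit that called 4.05% of all kept probes by line. None of the 38 was called by line among HF pigs, against 0.0113% of all kept probes, nor among LF pigs, against 0.0338%, and 1 in each had an unadjusted p under 0.05, against 5.02% and 6.36% of all.

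Other genes of the route, listed as lipoprotein receptors, LPL cofactors and inhibitors, other transporters, binding proteins, acyl-CoA synthetases and thioesterases, were measured for 40 of 57. Diet called 2 of the 40, both lower with HF, against 12.7% of all 11843 genes (9.31% lower). With 75th percentile scaling, 5.17% of all genes were called lower and 5.67% higher. Line called none by limma, against 1.21%, with 5 of the 40 at an unadjusted p under 0.05, against 10.3%. The median diet difference of the 40 was -0.06 against -0.04 over all genes. LRP8, a lipoprotein receptor, was dim, with group medians of -4.13 and -3.64 in HF low and high RFI pigs and of -3.15 and -3.38 in LF low and high RFI pigs. It fell by 0.54 with HF (adjusted p = 0.042), a call lost under normexp (-0.18), without background subtraction (-0.21), in the authors' table (-0.20), with array position as a block (-0.49) and within scan date 2 (-0.25). Differences of the uncalled genes ran from -1.07 for the apolipoprotein gene APOC3 (SE 0.55, adjusted p = 0.22) to 0.19 for the transporter gene SLC27A3 (SE 0.10, adjusted p = 0.21), which are named for their place at the ends of that range.

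The variation of the members from pig to pig was compared next. Each gene was read by its brightest kept probe, group means were removed, and the 28 pairs were tested by permutation within groups (100000 resamples, two-sided). Of these, 27 were positive with a median Pearson r of 0.42, and 19 had a Benjamini-Hochberg adjusted p under 0.05, by Pearson's r and also by Spearman's rho. Both members of a pair were read on the same 48 arrays. Over all 69684915 pairs of the 11806 genes with no missing value, the median r was 0.0069, 51% of pairs were positive and 8% had an r at or above the median of the member pairs.

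CD36 and FABP5 went together most closely, with r = 0.86 and rho = 0.83 (p = 1e-05 for each, the smallest these permutations give, adjusted p = 5.6e-05 and 9.3e-05). The r was 0.79 without the 2 pigs farthest from the median of CD36, and 0.69 and 0.93 within the 2 scan dates. It also depended on the CD36 probe, with 0.43 for A_72_P547299 and 0.57 for A_72_P393078, both nearer the start of the transcript, against 0.85 to 0.86 for the remaining 3. FABP3 and ACSL1 had r = 0.83 and rho = 0.80, with 0.81 when 2 pigs were left out and 0.81 and 0.82 within scan dates. CD36 and FABP3 had r = 0.70 and rho = 0.67, with 0.60 when 2 pigs were left out and 0.70 and 0.68 within scan dates, and with CD36 probe A_72_P547299 the r with FABP3 was 0.42. For these the raw p was 1e-05.

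LPL and VLDLR, which act on lipoproteins outside the cell, had r = 0.60 and rho = 0.61 (p = 3e-05 and 2e-05, adjusted p = 0.00012 and 0.00011), with 0.54 when 2 pigs were left out and 0.59 and 0.65 within scan dates. That LPL probe is the one annotated to baboon, and the 6 other LPL probes had r from 0.13 (O15020) to 0.62 with the same VLDLR probe. The pair CD36 and ACSL1, with r = 0.68 and rho = 0.58 (p = 1e-05 and 7e-05, adjusted p = 5.6e-05 and 0.00024), had an r of 0.00 within HF low RFI pigs, 0.60 within HF high RFI, 0.85 within LF low RFI and 0.89 within LF high RFI. That difference between groups was not tested. Without 2 pigs it was 0.56, and within the scan dates 0.58 and 0.69. With CD36 probe A_72_P547299 in place of the brightest it was 0.13.

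FABP4 on its brightest probe, A_72_P616844, had none of 7 pairs at an adjusted p under 0.05 and r from -0.19 with LPL to 0.31 with CD36. This depended on the scaling, since after quantile normalization the same probe had r = 0.57 with FABP5 (0.28 before), 0.47 with CD36 and 0.36 with ACSL1 (0.08 before). Another FABP4 probe gave other values. A_72_P611338, the one nearest the start of the transcript, had r = 0.75 with CD36 and 0.77 with FABP5 over the same 48 pigs.

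**Figure D3:**
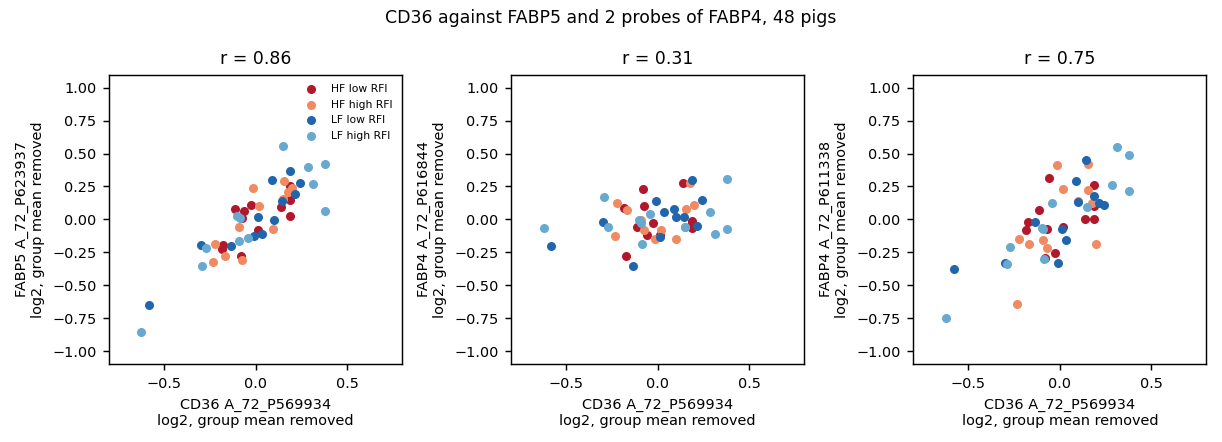
Levels in the 48 pigs with group means removed (log2 scale), with CD36 probe A_72_P569934 on each horizontal axis and FABP5, the brightest FABP4 probe and the FABP4 probe nearest the start on the vertical axes. The points rise together for FABP5 (r = 0.86) and for FABP4 probe A_72_P611338 (r = 0.75), and spread flat for FABP4 probe A_72_P616844 (r = 0.31).

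The 8 probes of FABP4 were described in 2 sets by signal. The 4 brightest, which start at bases 387, 473, 507 and 556 of the transcript and had mean signals of 226417 to 287018, correlated with each other at r = 0.48 to 0.88. The other 4, with starts at 51, 207 and 811 and 1 probe with no listed start, had mean signals of 8519 to 124877 and correlated at r = 0.85 to 0.95. Between the sets, r ran from -0.29 to 0.69. After quantile normalization the separation was lost, with r from -0.05 to 0.85 within the bright set, 0.83 to 0.92 within the other and 0.16 to 0.89 between. The sets were drawn after these values were seen, so no test is given.

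The pigs also varied less on the bright set, with SDs of 0.15 to 0.16 around the group means against 0.21 to 0.49 on the other. No spot on any array was saturated, and the highest member signal was 328123. For the bright probes, r between level and array median was -0.26, -0.60, -0.62 and -0.87 in order of start. The others had 0.17 to 0.46. Since the level is the log2 signal minus that median, a probe of nearly constant signal has a negative r by construction. After quantile normalization the bright probes had 0.52, 0.37, 0.40 and -0.28. The part of array brightness in the FABP4 results was not tested.

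A pair of probes in the dimmer set differ by 1 base in each that the other lacks and share the remaining 59, and are shown 5′ to 3′ because they read nearly the same stretch of FABP4. The capital in each line is that base. Their levels correlated at r = 0.86.
A_72_P564767: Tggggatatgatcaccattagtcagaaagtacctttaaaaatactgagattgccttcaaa
O15016: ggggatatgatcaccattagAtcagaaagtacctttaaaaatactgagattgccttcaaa

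Probes of CD36 and of LPL were set out by position. CD36 probes starting at bases 399 and 834 correlated at r = 0.93 and those at 1969 and 2173 at 0.96, while r between the sets was 0.38 to 0.69. LPL probes at 335 and 669 correlated at 0.92 and those at 2157, 2473 and 2599 at 0.90 to 0.95, with 0.60 to 0.69 between. With slide means also removed, r between the sets was 0.59 to 0.85 for CD36 and 0.70 to 0.85 for LPL, and after quantile normalization it was 0.23 to 0.47 and 0.46 to 0.56. The difference between end-side and start-side probes went with the array median at r = 0.77 for CD36 (0.67 and 0.77 within scan dates) and 0.56 for LPL (0.18 and 0.76 within scan dates), and its part was not tested. These are descriptions over the same 48 arrays. One start-side probe of each gene is shown 5′ to 3′, in lower case throughout, as the stretch that the start-side readings came from.
A_72_P393078: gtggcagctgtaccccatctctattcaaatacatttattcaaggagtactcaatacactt
A_72_P715658: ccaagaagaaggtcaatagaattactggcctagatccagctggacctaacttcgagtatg

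The 5 FABP3 probes correlated at r = 0.84 to 0.99, including the dim probe O8743 with a mean signal of 683, and the 4 FABP5 probes at 0.91 to 0.96. The FABP5 probes starting at 509, 512 and 517 overlap one another, so that they share most of their sequence and are not separate readings. ACSL1 probes correlated at 0.68 to 0.91 and VLDLR probes at 0.50 to 0.75.

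**Figure D4:**
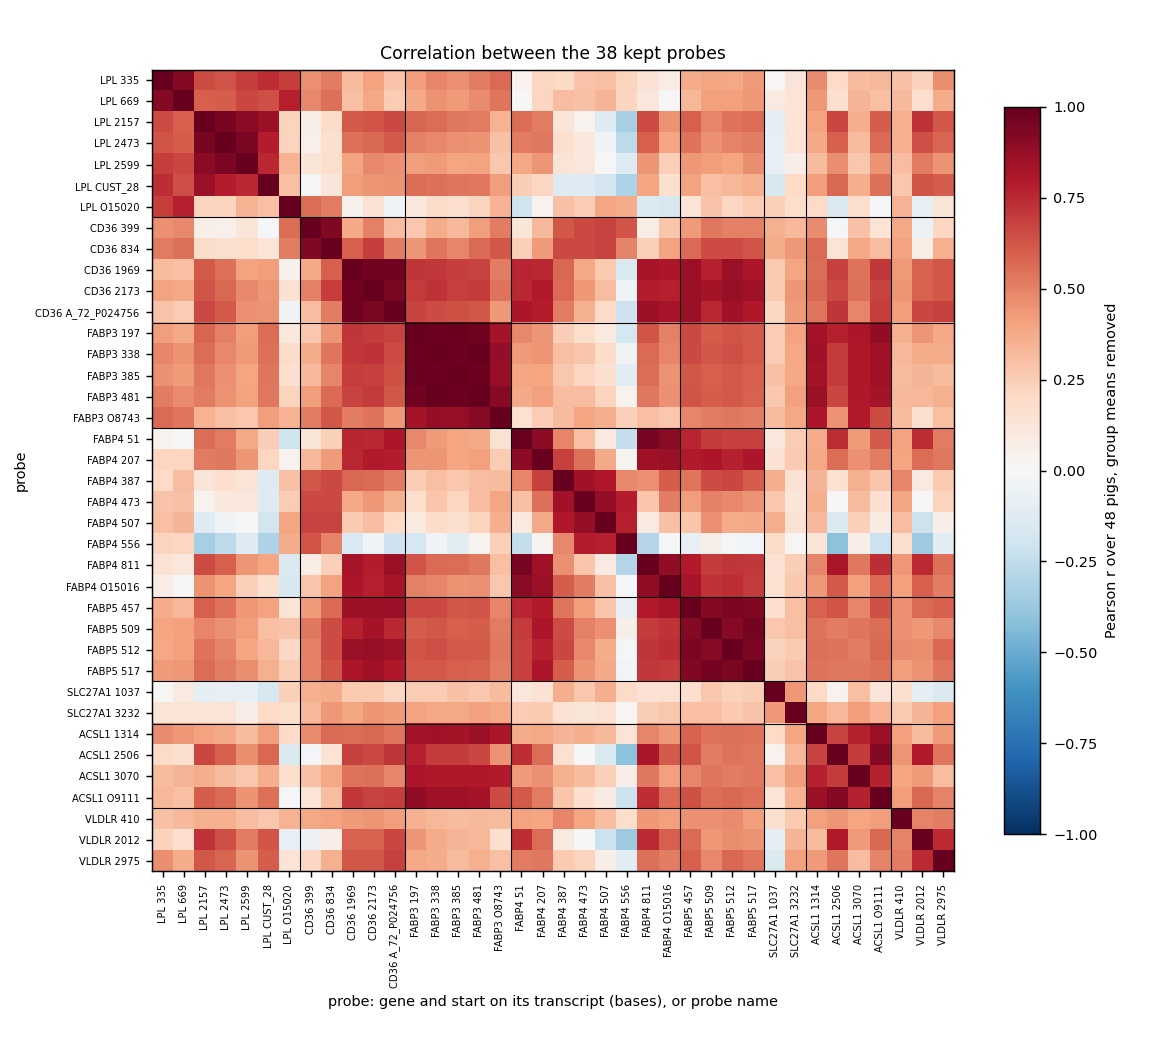
Pearson r between the 38 kept probes over 48 pigs with group means removed, ordered by gene and by start on the transcript in bases, with black lines between genes. FABP3 and FABP5 form even blocks (0.84 to 0.99 and 0.91 to 0.96), while r in the FABP4 block runs from -0.29 to 0.95.

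Over all other genes measured, the 3 most like each member across the 48 pigs, by Pearson r with group means removed, were listed as a description. For LPL they were TBL1X (0.86), SNTB1 (0.84) and PSPH (0.84), and for VLDLR they were the adipokine ADIPOQ (0.72), FOXN2 (0.68) and RDH16 (0.66). CD36 was most like its fellow member FABP5 (0.86), then ARL6IP1 (0.83) and COQ5 (0.82), an enzyme of coenzyme Q synthesis. FABP5 was most like CD36, COQ5 (0.77) and PTGR2 (0.75). FABP3 was most like SLC25A1, the mitochondrial citrate carrier (0.87), SLC25A39 (0.87) and TECR, an enzyme of very long chain fatty acid elongation (0.87). ACSL1 was most like COX15 (0.89), OGDHL (0.87) and YWHAZ (0.87). FABP4 on its brightest probe was most like GON4L (0.83), KCNK7 (0.82) and VTN (0.81). For SLC27A1 the closest were LOC100152850 (0.59), MAP3K6 (0.59) and MESDC2 (0.58).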

How the data were processed

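RNA of each pig was labelled by the authors with 1 dye (Cy3), hybridized to a porcine Agilent array and quantified with Feature Extraction 10.7.3.1. Spot intensity in the deposited scanner output is linear and background-subtracted. A second deposited table by the authors holds log2 median signals, centred on each array's median with R 2.10.0, which was used as an alternative. Control spots and flagged spots were left out, intensities were taken to log2, and each array's median over the 44356 probes kept was subtracted. The array annotation gives no genome position, and probes were named from the array files and from reference tables of assembly Sscrofa11.1. A gene was read by its kept probe of highest mean signal.

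The 4 group means were fitted over all 48 arrays with limma 3.58.1 (lmFit, eBayes with trend) in R 4.3.3, two-sided, with adjustment over all kept probes. The fit was tested on simulated data with probes and arrays drawn independently. Slide, scan date and array brightness had no part in that simulation, so it does not cover them. All kept probes of the members are named, with called genes of the pathway list and the 3 genes most like each member. A called gene of that list is counted but not reported here. The members and lists were chosen with earlier results of these data known. Titles gave group and replicate number, and the age came from a separate label. Separate pigs are the replicates. Alternatives in scaling, background, filter, blocks, weights and thresholds were run, and fits within scan dates were added after seeing the data. Precision is limited by the number of arrays.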

Additional observations from a re-analysis of the deposited data

How the results depend on the processing

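The single member call by diet became 0 with 75th percentile scaling, normexp, median signals, the authors' table, probes well above background on all arrays (which leaves the called probe out), array position as a block, an adjusted p under 0.05 alone, and within scan date 1 and scan date 2, where 5.43% and 2.77% of all probes were called. With array weights, 3 member probes were called by line (4.05% of all probes) and 2 by diet within low RFI pigs (9.33%). Genes of the pathway list called by diet numbered 1 with normexp, median signals, the authors' table, the all-arrays filter and the position block (8.98% to 13.2% of all genes), 6 with array weights (17.8%) and 4 when all probes of a gene were averaged (12.3%). They numbered 3 with 75th percentile scaling, where ACOT4 was 0.20 higher with HF, without the filter, and with slide, scan date or replicate number as a block (10.3% to 15.3%). By line, that list had 1 call (ACOT4) with 75th percentile scaling, the all-arrays filter, slide, scan date and replicate number as a block (1.17% to 2.63% of all genes), and 3 with array weights (3.91% of all genes). Member correlations with an adjusted p under 0.05 numbered 9 of 28 within scan date 1, which holds fewer pigs, against 19 over all pigs. The cause of this and of the other shifts was not tested.

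With the replicate block, members had 1 call by diet (16.1% of all probes) and 0 by line (2.57%). The labels do not say what the numbers stand for, so they were not taken as pairs. Each of the 12 numbers lay on 1 slide. Of 72 same-number pairs, 48 correlated above 0.1 (-0.19 to 0.45, median 0.16), and 17 of 48 arrays correlated best with their own number. Arrays of 1 number may thus share variation that the main fit leaves out, and its source was not tested. No called value reversed. Among differences that were not called, 6 of 38 probes by diet and 8 of 38 by line changed sign under at least 1 of the 15 alternatives other than the fits within scan dates. In those fits, 8 probes by diet changed sign within scan date 2, and 7 and 3 by line within scan dates 1 and 2. Leaving out single pigs was not run, since each group held 12. Probe A_72_P643317 stood above background on 35 of 48 arrays, so that part of its values are near that limit.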
